A study of Mus musculus with 4 samples.

Results

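The genes described here encode enzymes of fatty acid oxidation and targets of PPARα in mouse small intestine. They were taken by name: 34 symbols, each measured by the brightest array probe whose accession maps to the gene. All 34 had a probe and passed the background filter, and they are 34 of 14399 genes tested. Of these probes, 33 were well above background on all 4 arrays, and that of Acot2 was so only in wild type 2 and knockout 1.

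Fatty acid oxidation shortens fatty acids by pairs of carbons. A fatty acid is first coupled to coenzyme A, carried into mitochondria as a carnitine ester and then passed through repeated rounds of dehydrogenation, hydration, a further oxidation and cleavage, while peroxisomes shorten very long and branched chains. PPARα is a nuclear receptor that binds fatty acids and, with its partner RXR, raises transcription of many of these genes. In the intestine it is active in absorptive enterocytes, which meet dietary fat.

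RNA of small intestine from wild-type mice was compared with RNA from mice lacking the Cyp3a cluster (Cyp3a-/-), a group of neighbouring genes for drug-oxidising cytochromes P450. Each genotype had 2 arrays, from 2 experiments on different animals per the series' design text. No treatment is named. Strain, age, sex, intestinal segment and the number of animals behind an array are not given in the sources used here, so the p-values measure only the spread between these samples. Levels are log2 Cy3 signal minus the 75th percentile of the same array, so 1 unit is a doubling. A difference is the knockout mean less the wild-type mean, and its standard error (SE) is that of a limma fit, and a gene was called past the threshold at an adjusted p under 0.05.

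The deletion itself was seen: Cyp3a11 was at 5.05 and 5.78 on the wild-type arrays and at -5.77 and -4.52 on the knockout arrays (limma's adjusted p = 0.00235). Knockout 1 stood apart from the rest. Over all genes its correlation was 0.948 with knockout 2, against 0.966 and 0.962 with wild type 1 and 2, while the wild-type arrays correlated at 0.979. Wild type 2 and knockout 1 lay on 1 slide, and the other arrays on a slide each. Between 55.1% and 64.4% of probes were well above background on an array, and 0 spots were saturated. The enterocyte genes Fabp2, Anpep, Alpi and Vil1 were well above background on every array. Precision is limited by there being 2 arrays per genotype and by the spread between them.

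For none of the 34 genes was a difference between genotypes shown beyond the spread of the arrays. Limma called 0 of the 34 higher and 0 lower, where it called 0% of all genes higher and 0.0417% lower. Those called lower were 6 genes, all of the Cyp3a family: Cyp3a11, Cyp3a16, Cyp3a25, Cyp3a41b, Cyp3a57 and Cyp3a59. Cyp3a13, of the same family, was lower by 6.37 (SE 0.64) and was not called (limma's adjusted p = 0.105). Each of the 34 had an adjusted p of 1.00, and 0 of them had an unadjusted p under 0.05 (0.444% of all genes did). With no true differences a share near 0.05 would be expected, so this fit gave few small p-values. An absent call is therefore not evidence of equal levels. The differences ran from -0.12 for Decr2 to 0.59 for Acox2, with SEs from 0.27 to 0.63. They were positive in 31 genes and negative in 3, with a median of 0.20, where 56.2% of all genes were positive with a median of 0.04. The split depended on scaling: 27 were positive after quantile normalization, and 9 after normexp background correction with every spot, which 14 spots of uneven background on the array of knockout 2 affected (31 without those spots). The genotypes lay apart, with the knockout arrays on the higher side, for 1 gene, Acot1, against 8.65% of all genes, and on the lower side for 0, against 6.08%.

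**Figure D1:**
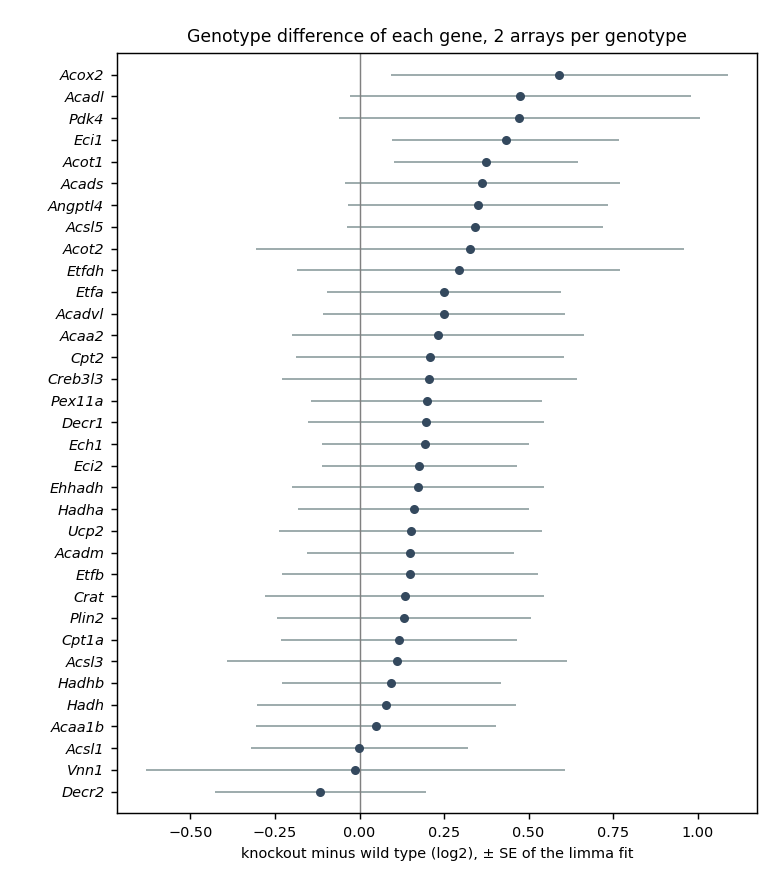
Difference between knockout and wild type (log2, horizontal axis) for each of the 34 genes, sorted by size, with bars of 1 SE from the limma fit on 2 arrays per genotype. The differences lie between -0.12 and 0.59, and 31 of 34 are above 0.

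The knockout arrays differed from each other over most of the 34 genes. Knockout 1 was above both wild-type arrays for 28 of the 34 genes (82.4%), against 37.9% of all genes, and its median level relative to the wild-type mean was 0.51. It was above that mean for 32 of the 34, against 52.9% of all genes. Knockout 2 was above both for 1 gene and below both for 14, against 33.6% and 26.6% of all genes, and its median was -0.07. It was below the wild-type mean for 21, against 44.9%. Wild type 1 was above wild type 2 for 27, against 53.9%. In 14 genes (41.2%) knockout 1 was the highest and knockout 2 the lowest of the 4 arrays, an order seen in 16.3% of all genes. These were Acsl1, Cpt1a, Cpt2, Crat, Acadl, Eci2, Etfdh, Ehhadh, Acaa1b, Acot2, Pdk4, Plin2, Vnn1 and Creb3l3. Both comparisons use the same wild-type mean and are not independent. The gap between the knockout arrays was larger than the genotype difference in 31 of 34 genes, and the gap between the wild-type arrays was so in 28. These counts were not taken over all genes, so whether they are particular to the 34 is not known. The median gap of the 34 was 0.57 between the knockout arrays, against 0.45 over all genes. Between the wild-type arrays it was 0.39, against 0.30.

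**Figure D2:**
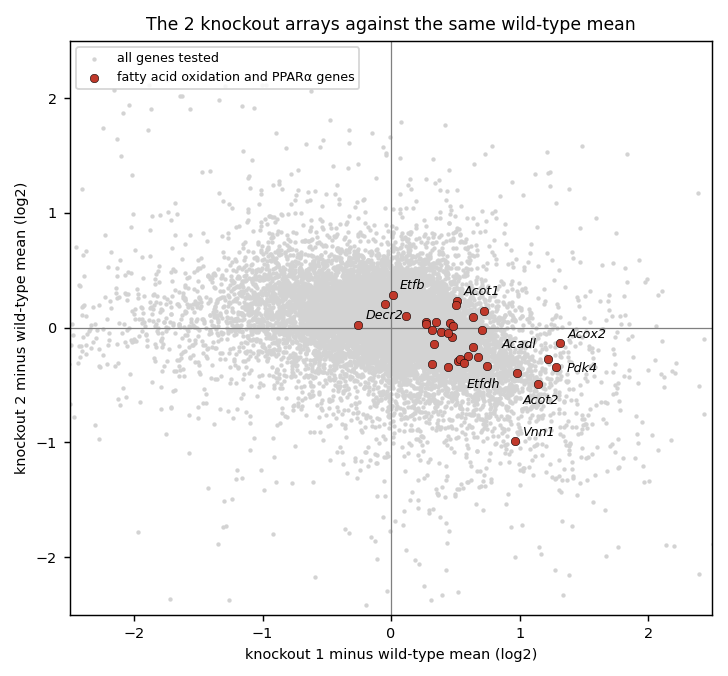
Level relative to the wild-type mean in knockout 1 (horizontal axis, log2) and in knockout 2 (vertical axis, log2) for all genes tested (grey) and the 34 genes (red); 109 genes lie outside the axes. The red points reach 1.32 in knockout 1 and -0.99 in knockout 2, and 32 of 34 are to the right of 0.

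The stretch just before the start site was read for letters that PPARα and related nuclear receptors are known to bind. RefSeq's promoter table (GRCm38.p6) held windows for 29 of the 34 genes, and the 250 bases before the start were searched on both strands. The half-site AGGTCA occurred in 5 of the 29 (17.2%), near the 15.8% of all genes with a window. The direct repeat of that half-site with any single base between the copies (DR1), and a looser form that also takes any base at the fourth position of each copy and so includes every match of the first, occurred in 0 of the 29, against 0.0407% and 0.4% of all genes. With shares that low, 0 of 29 is the usual outcome and does not set these genes apart. A match is a description of letters, not a site. The 5 genes were Acadm, Acadvl, Cpt1a, Creb3l3 and Plin2. Of these, Cpt1a, Creb3l3 and Plin2 were highest in knockout 1 and lowest in knockout 2, an order held by 14 of the 34 (41.2%). Acadm and Acadvl did not have that order and their sequences are left out. The sequences shown were thus picked by that order, and a link between half-site and order was not tested. The upstream sequences of Cpt1a, Creb3l3 and Plin2 are shown with the half-site, or its reverse complement, in capitals.
Cpt1a, chr19:3323051-3323300, plus strand: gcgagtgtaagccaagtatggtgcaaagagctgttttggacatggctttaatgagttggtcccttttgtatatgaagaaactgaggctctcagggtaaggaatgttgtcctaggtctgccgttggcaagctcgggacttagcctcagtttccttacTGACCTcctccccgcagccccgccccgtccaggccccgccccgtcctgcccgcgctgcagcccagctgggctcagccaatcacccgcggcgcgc
Creb3l3, chr10:81092592-81092841, minus strand: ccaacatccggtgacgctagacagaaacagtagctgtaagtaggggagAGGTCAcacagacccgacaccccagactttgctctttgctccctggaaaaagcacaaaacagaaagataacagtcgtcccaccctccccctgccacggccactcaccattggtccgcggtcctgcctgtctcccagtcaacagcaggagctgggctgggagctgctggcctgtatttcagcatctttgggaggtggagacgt
Plin2, chr4:86670060-86670309, minus strand: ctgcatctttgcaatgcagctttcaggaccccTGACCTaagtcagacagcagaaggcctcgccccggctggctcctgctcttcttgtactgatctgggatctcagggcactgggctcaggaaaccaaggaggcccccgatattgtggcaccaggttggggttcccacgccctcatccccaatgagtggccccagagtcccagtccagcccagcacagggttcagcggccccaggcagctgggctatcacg
Counted back from the start site, with -1 the last base before it, the capitals begin at -94 in Cpt1a, -202 in Creb3l3 and -218 in Plin2.

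The first step is activation, in which acyl-CoA synthetases couple fatty acids to coenzyme A. Acsl5, the form prominent in intestine, was at 4.51 and 3.97 on the wild-type arrays and at 4.95 and 4.22 on those of the knockout, values being given throughout in the order 1, 2. Knockout 1 was the highest and knockout 2 lay between the wild-type arrays, so the genotypes overlapped (difference 0.34, SE 0.38). Acsl1, a form that serves both oxidation and storage, had 2.68 and 2.45 in wild type and 2.88 and 2.25 in knockout. Its knockout arrays lay on either side of the wild-type pair. A second Acsl1 probe was highest in wild type 1 (-0.04) and had -0.93 in wild type 2, -0.44 in knockout 1 and -0.75 in knockout 2, so the probes of this gene differed in order. Acsl3, a form found on lipid droplets, was the exception: its wild-type levels of -2.10 and -0.65 enclosed both knockout levels, -1.26 and -1.27.

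The carnitine shuttle then moves the acyl groups into mitochondria. Cpt1a, the rate-limiting enzyme of mitochondrial entry, was read by 10 spots on each array, with means of 2.73 and 2.55 in wild type and 3.16 and 2.35 in knockout. The SD between those spots, which is technical error within an array, was at most 0.05 on any array. The genotype difference was 0.12 with an SE of 0.35. A second, dimmer Cpt1a probe had -0.77 and -1.08 in wild type and -0.81 and -0.88 in knockout, an order in which wild type 1 was the highest. Cpt2, which releases the acyl group inside the mitochondrion, had 4.63 and 4.32 in wild type and 5.15 and 4.22 in knockout (difference 0.21, SE 0.40). Its second probe kept knockout 1 as the highest (-1.63) and knockout 2 as the lowest (-3.08). Crat, which forms short-chain carnitine esters, had -2.21 and -2.58 in wild type and -1.86 and -2.66 in knockout. By their brightest probe, all 3 of these shuttle genes were highest in knockout 1 and lowest in knockout 2.

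**Figure D3:**
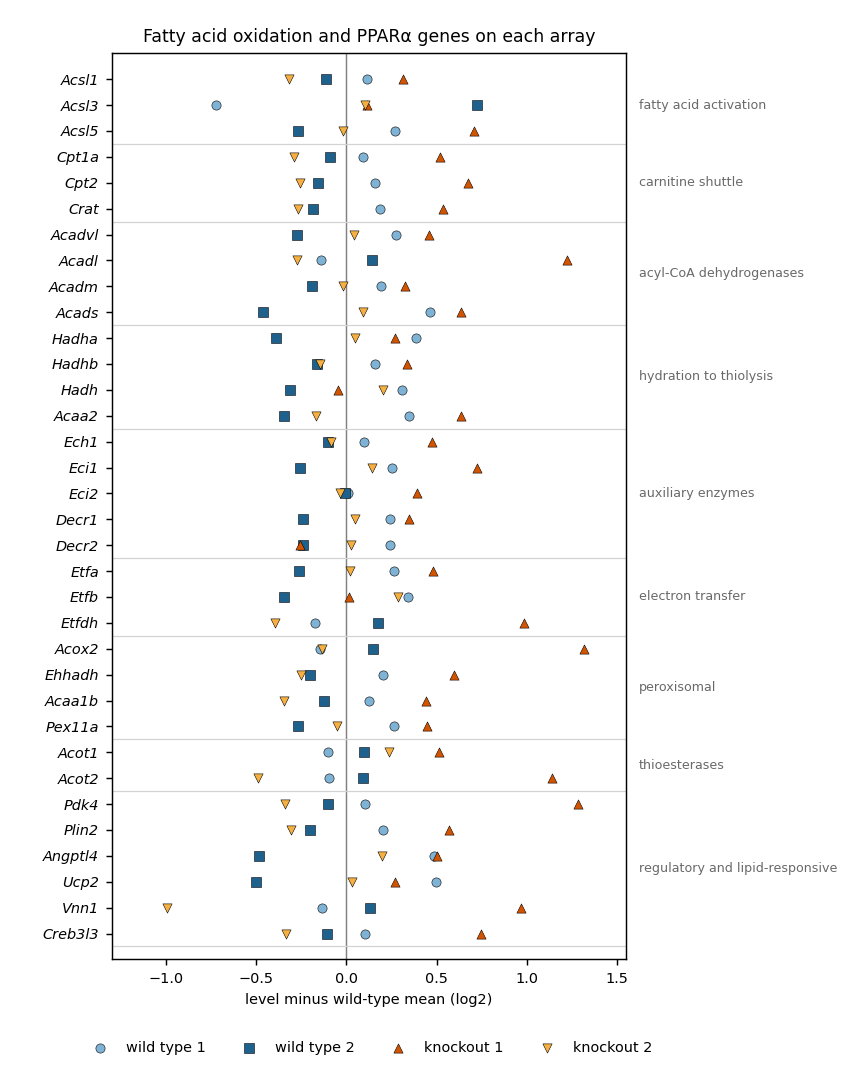
Level of each of the 34 genes on each array, relative to its wild-type mean (log2, horizontal axis), with genes grouped by step or role. Knockout 1 (upward triangles) is the rightmost point for 28 genes, and knockout 2 (downward triangles) is the leftmost for 14.

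Acyl-CoA dehydrogenases carry out the first oxidation of each round, for chains of different length. Acadl, the long-chain enzyme, had 0.36 and 0.64 in wild type and 1.73 and 0.23 in knockout (difference 0.47, SE 0.50). Knockout 1 was 1.22 above the wild-type mean, and knockout 2 was under both wild-type arrays. Acads, the short-chain enzyme, had 0.04 and -0.89 in wild type and 0.21 and -0.34 in knockout (difference 0.36, SE 0.41), and Acadvl, for very long chains, had 5.63 and 5.08 against 5.81 and 5.39 (difference 0.25, SE 0.36). In both, wild type 1 lay near knockout 1 and wild type 2 was the lowest. Acadm, the medium-chain enzyme, had a difference of 0.15 with an SE of 0.31. All 4 were highest in knockout 1, and 1 of the 4, Acadl, was lowest in knockout 2.

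Of the 4 enzymes of the later steps, Hadhb and Acaa2 were highest in knockout 1 and Hadha and Hadh in wild type 1. Hadha and Hadhb encode the subunits of the trifunctional protein, Hadh the short-chain hydroxyacyl-CoA dehydrogenase and Acaa2 the mitochondrial thiolase. Hadha had 1.96 and 1.18 in wild type and 1.84 and 1.61 in knockout, with both knockout arrays inside the wild-type range. Hadh had 6.98 and 6.36 in wild type and 6.63 and 6.88 in knockout, again inside that range. Acaa2, read by 8 to 10 spots on an array, had 6.11 and 5.41 in wild type and 6.39 and 5.59 in knockout (difference 0.23, SE 0.43), and the SD between its spots was at most 0.07. All 4 had their lowest level in wild type 2. Differences of Hadha, Hadhb and Hadh were 0.16, 0.09 and 0.08, each under its SE.

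Unsaturated fatty acids need auxiliary enzymes that move or reduce double bonds. Eci1, a mitochondrial enoyl-CoA isomerase, had 2.08 and 1.57 in wild type and 2.54 and 1.96 in knockout. Its difference of 0.43 was above its SE of 0.34, but wild type 1 exceeded knockout 2. Ech1, Eci2 and Decr1 had differences from 0.18 to 0.20, and each was highest in knockout 1. Decr2, the peroxisomal dienoyl-CoA reductase, was the only gene of the 34 with knockout 1 as its lowest array: it had 4.20 and 3.72 in wild type and 3.70 and 3.98 in knockout. Decr1, its mitochondrial counterpart, had 6.09 and 5.61 in wild type and 6.20 and 5.90 in knockout, and a second Decr1 probe was also highest in knockout 1 (-1.10) and was lowest in knockout 2 (-2.66).

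Electrons from the dehydrogenases pass through the electron transfer flavoprotein, made of Etfa and Etfb, to its oxidoreductase Etfdh and on to the respiratory chain. Etfdh had 1.97 and 2.32 in wild type and 3.13 and 1.75 in knockout (difference 0.29, SE 0.48). Etfa had 4.84 and 4.32 in wild type and 5.06 and 4.60 in knockout (difference 0.25, SE 0.35). Etfb had 6.34 and 5.65 in wild type and 6.01 and 6.28 in knockout, so both knockout arrays lay inside the wild-type range. The subunits of this protein did not share an order across the arrays: Etfa was highest in knockout 1 and Etfb in wild type 1. A second Etfb probe (-1.19 and -1.79 in wild type, -0.98 and -1.63 in knockout) was highest in knockout 1 and another (3.90 and 3.23 in wild type, 3.77 and 3.63 in knockout) was highest in wild type 1, so that order differed between probes too.

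Acox2, Ehhadh, Acaa1b and Pex11a serve peroxisomes, and unlike Decr2 all 4 had knockout 1 as the highest array. Acox2, which oxidises branched chains and bile acid intermediates, had -0.42 and -0.12 in wild type and 1.05 and -0.40 in knockout. Its difference of 0.59 (SE 0.50) was the largest of the 34. Knockout 1 was 1.32 above the wild-type mean, and knockout 2 lay between the wild-type arrays. Ehhadh, the peroxisomal bifunctional enzyme, had 2.88 and 2.47 in wild type and 3.27 and 2.42 in knockout. Acaa1b, a peroxisomal thiolase, had 3.82 and 3.58 against 4.14 and 3.36. Pex11a, which takes part in peroxisome division, was read by 10 spots an array and had 4.16 and 3.62 in wild type and 4.34 and 3.84 in knockout, with an SD between spots of at most 0.09.

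Thioesterases release free fatty acids from coenzyme A. Acot1, the cytosolic form, was the only gene whose genotypes did not overlap: it had 1.28 and 1.48 in wild type and 1.89 and 1.61 in knockout. Its difference of 0.37 had an SE of 0.27 and the smallest unadjusted p of the 34, 0.217 (limma's adjusted p = 1.00). The gap between its knockout arrays was 0.28. Acot2, the mitochondrial form, had -4.29 and -4.10 in wild type and -3.06 and -4.68 in knockout, with wild type 1 and knockout 2 not well above background. Both are close in sequence to other members of their cluster, and sharing of signal between their probes was not checked.

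The last genes are regulators or respond to lipid supply. Pdk4, a kinase that restrains pyruvate oxidation and is a classic PPARα target, had 0.37 and 0.17 in wild type and 1.56 and -0.07 in knockout (difference 0.47, SE 0.53). Vnn1, a pantetheinase involved in coenzyme A turnover, had the widest gap between knockout arrays, 1.58 against -0.38, with its wild-type arrays at 0.48 and 0.74. Creb3l3, a membrane-bound transcription factor of enterocytes and liver, had 5.66 and 5.45 in wild type and 6.30 and 5.22 in knockout. Plin2, a lipid droplet coat protein, had 2.47 and 2.07 in wild type and 2.84 and 1.96 in knockout. In these 4, knockout 1 was the highest array and knockout 2 the lowest. Angptl4, a secreted inhibitor of lipoprotein lipase, had 2.37 and 1.40 in wild type and 2.39 and 2.09 in knockout (difference 0.35, SE 0.39), so that wild type 2 stood apart from the other arrays. Ucp2, a mitochondrial carrier, was also lowest in wild type 2, with 3.02 and 2.02 in wild type and 2.79 and 2.56 in knockout.

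The genotype comparison depended on which array was in it. Without knockout 1 the median difference of the 34 was -0.07, with 13 positive, and without wild type 2 it was -0.03, with 15 positive. Without knockout 2 it was 0.51 and without wild type 1 it was 0.35, with 32 positive in each. With either wild-type array left out, limma called no gene of the whole series. The absence of calls among the 34 in those fits therefore does not set them apart from other genes. Limma called 0 of the 34 without wild type 1 or wild type 2, and 0 without knockout 1, where it called 0.0139% of all genes higher and 0.0695% lower. Without knockout 2, where only the wild-type pair gave a spread, it called 0.958% of all genes higher and 2.1% lower, and 2 of the 34, both higher: Acox2 (log2 difference 1.32, adjusted p = 0.0419) and Pdk4 (1.28, adjusted p = 0.0427). Over the 15 settings with a test of each gene, limma's adjusted p of these genes ran from 0.0419 to 1.00 and from 0.0427 to 1.00. Within the slide that held both genotypes, knockout 1 exceeded wild type 2 in 32 of 34 genes, with a median of 0.74, against 56.4% of all genes and a median of 0.08. That comparison rests on 1 array each and has no test.

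**Figure D4:**
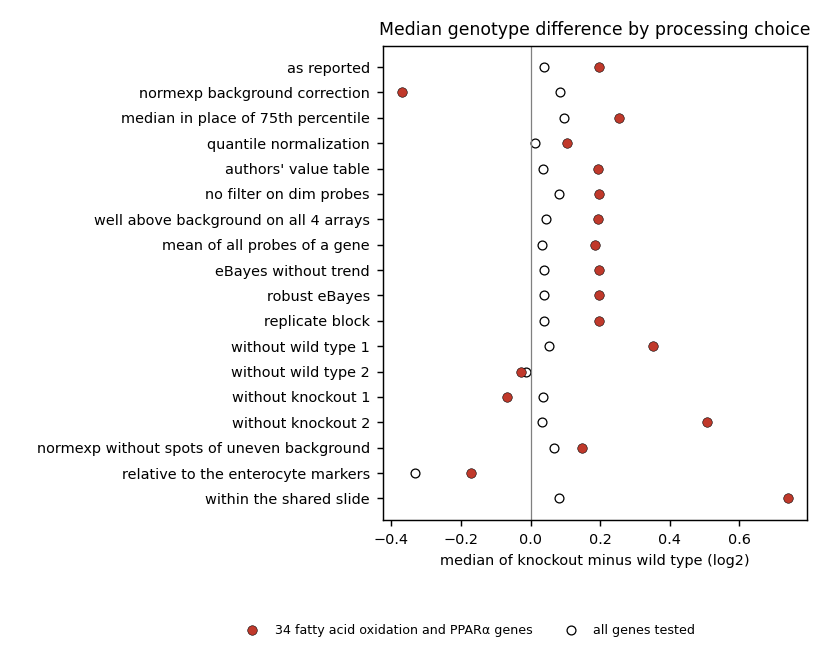
Median of knockout minus wild type (log2) over the 34 genes (red) and over all genes tested (open circles) under each processing choice. The red points run from -0.37 to 0.74 and lie below 0 without wild type 2, without knockout 1, relative to the enterocyte markers and under normexp with every spot.

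Markers of other compartments moved with the same arrays. The enterocyte list was above both wild-type arrays in knockout 1 for 11 of 12 genes and below both in knockout 2 for 7, with medians of 0.97 and -0.35. The log2 of its summed signal was 9.89 and 9.29 on the wild-type arrays and 10.27 and 9.47 on the knockout arrays. The smooth muscle list, led by Tagln, Acta2 and Cnn1, went the other way: all 8 genes were below both wild-type arrays in knockout 1 and above both in knockout 2, with medians of -0.91 and 0.68. Its summed level on the same scale was 6.73 and 8.33 in the knockout arrays, against 7.54 and 7.74 in wild type. All 5 tested adipocyte markers, the brightest being Plin4, Cidea and Cfd, were likewise lower in knockout 1 and higher in knockout 2, with medians of -0.92 and 1.60 and summed levels of 1.27 and 1.30 on the wild-type arrays and 0.23 and 2.44 on the others. Plin1 and Lep, defining adipocyte genes, were too dim to be tested. Of the 6 liver markers tested, 5 were highest in wild type 1 and Ttr was not, with 0.63 and 1.16 in wild type and -1.16 and 1.14 in knockout. The summed level of the list was 3.46 in wild type 1, 1.41 in wild type 2, -0.37 in knockout 1 and 1.67 in knockout 2, and the level of Alb, the albumin gene, was 1.33, -5.50, -5.56 and -2.60. Alb, Ahsg and Apoh, and Adipoq of the adipocyte list, were well above background on only 2 arrays. Mug1 of the liver list and Cfd were so on 3. Segment markers moved too, with medians in knockout 1 and 2 of 0.48 and -0.36 for the proximal list and 0.84 and 0.16 for the distal list. Of the distal list, Slc10a2 was well above background on only 2 arrays, and Fabp6 was dim, at -4.82 to -3.35. Fabp1 of the proximal list and Fabp2 of the enterocyte list are also among the related pathway genes given below. Goblet and Paneth markers had medians of 0.83 and 0.02, fibroblast markers -0.58 and 0.38, neuron and glia markers -0.79 and -0.13, immune markers -0.18 and -0.46 and crypt markers -0.15 and 0.13. The part of these shifts in the fatty acid oxidation values was not tested, and in bulk tissue fewer cells of a type and less RNA per cell cannot be told apart.

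**Figure D5:**
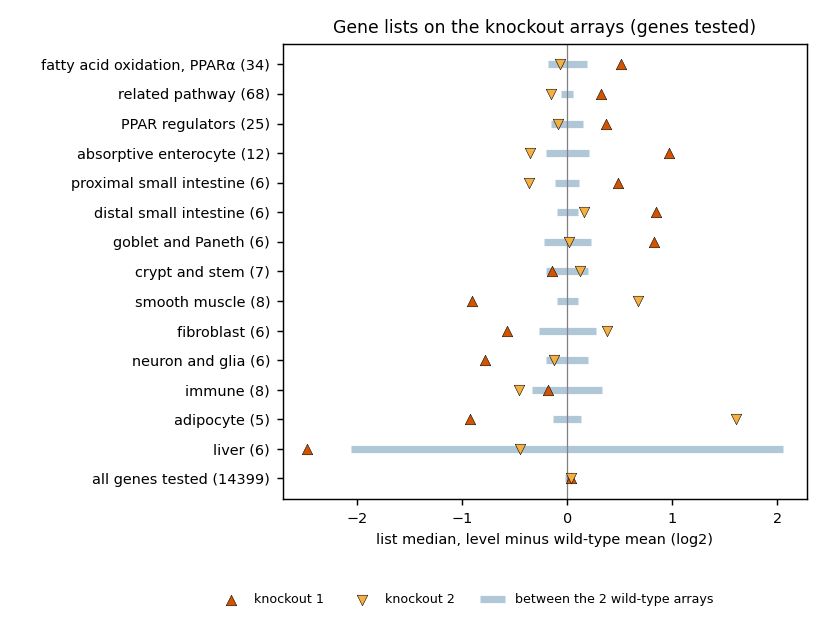
List medians of the level relative to the wild-type mean (log2, horizontal axis) in knockout 1 and knockout 2; the blue bar spans the wild-type arrays and the number of genes tested is in brackets. The fatty acid oxidation genes (0.51 and -0.07) and the enterocyte markers (0.97 and -0.35) are higher in knockout 1, and the smooth muscle markers (-0.91 and 0.68) are lower.

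When levels were instead set relative to 11 enterocyte markers, a scaling chosen after seeing the data, the direction turned. The median difference of the 34 was then -0.17, and 5 of the 34 were positive, while the median of all genes moved from 0.04 to -0.33 and 6.61% of all genes were positive. The distance of the 34 from the median of all genes was 0.16 on both scales, since a shift of a whole array moves both alike. Limma called 0 of the 34 on this scale, against 0.00694% of all genes higher and 0.0556% lower.

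The rest of the pathway gave a similar picture. Of 72 other genes of uptake, activation, oxidation, ketone synthesis and PPARα response, 68 were tested, and limma called 0 higher and 0 lower, with 0 at an unadjusted p under 0.05. Their median difference was 0.11, with 47 positive and 21 negative, where 56.2% of all genes were positive. They lay above both wild-type arrays in 46 of 68 for knockout 1, against 37.9% of all genes. For knockout 2 they lay below both in 35, against 26.6%. The medians were 0.32 and -0.15. The genotypes lay apart on the higher side for 8 of the 68 and on the lower side for 3, against 8.65% and 6.08% of all genes. Without knockout 2, where limma called 0.958% of all genes higher and 2.1% lower, it called 4 of the 68. Acacb was lower in knockout 1, and Acot12, Cd36 and Crot were higher. Cyp4a10, an ω-hydroxylase often used as a PPARα readout, had 1.83 and 1.88 in wild type and 2.62 and 0.70 in knockout, and Cyp4a14 was not well above background on any array. Fabp1, a fatty acid binding protein, had 8.06 and 7.52 against 8.61 and 7.44, and Slc25a20, the carnitine carrier, had -0.19 and -0.49 against 0.44 and -0.78. In Cyp4a10, Fabp1 and Slc25a20, knockout 1 was again the highest array and knockout 2 the lowest.

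Among receptors and coregulators the order was different for Ppara itself. Ppara had 1.86 and 1.21 in wild type and 2.21 and 1.98 in knockout, so the genotypes did not overlap, yet the difference of 0.55 had an SE of 0.32 and limma's adjusted p was 1.00. Pparg, its relative, had 2.49 and 2.72 in wild type and 3.24 and 2.84 in knockout (difference 0.44, SE 0.29). Of the 25 regulators tested, limma called 0, and 5 lay apart on the higher side, where 8.65% of all genes did. Acot3 and Cpt1b were among the 8 related genes higher without overlap, by 0.67 (SE 0.45) and 0.49 (SE 0.36). Lpin1, a phosphatidate phosphatase that also acts as a coregulator, was among the 3 lower without overlap (log2 difference -0.84, SE 0.55). Lpin1 is on both lists. It was not well above background in knockout 1, nor Acot3 in wild type 1 and knockout 2.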

How the data were processed

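Per the labels, Cy3-labelled cRNA was hybridised to Agilent mouse arrays with 1 colour. The submitters' processing notes name Agilent Feature Extraction, version 11.5.1.1. Per the file headers, the spots' deposited processed intensity has background subtracted and no scaling between arrays. The authors' deposited value table holds log2 values; over 39408 probes it equalled the scaled levels used here after subtraction of each probe's median, with differences of at most 0.0034, and each column correlated with it at 1.00. Its columns had medians of 0.05 and -0.10 (wild type) and -0.11 and 0.12 (knockout), and it keeps differences and no levels.

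Control spots and outlier-flagged spots (91 to 129 per array) were dropped, repeated spots were averaged as log2 signal, and each array's 75th percentile was subtracted. Of 39429 probes, 28025 matched 1 symbol through their accession in RefSeq's GRCm38.p6 table. The arrays are annotated on another build, so no gene coordinates are given beyond RefSeq's own promoter windows. Probes well above background on at least 2 arrays were kept (24013), and the brightest probe per gene was used. The test was limma 3.58.1 (R 4.3.3; lmFit, then eBayes with a trend on intensity), with Benjamini-Hochberg adjustment over all 14399 genes. The fit was also run on simulated data with independent errors and with changes larger than any difference of the genes described here. That run therefore does not bear on detecting differences of their size.

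The 34 genes and the lists were chosen with earlier results of these data known. All 34 are named; values on each array are given for those without overlap, the 12 largest differences and the 5 smallest p, and where a role had none of these. Others with values on each array, such as Vnn1, Creb3l3, Plin2 and Decr2, were chosen after their values were seen. Of other genes, Ppara, Cyp4a10, Cyp4a14, Fabp1, Slc25a20, those of the 6 smallest p and the brightest markers are given, and some genes that this rule names are not reported here. Over all genes, the difference between wild type 1 and 2 correlated at 0.05 with that between knockout 1 and 2. Among the 34, wild type 1 was above wild type 2 in 27, and knockout 1 above knockout 2 in 31. Over all genes those shares were 53.9% and 47.5%. Whether the labels' numbers mark a shared experiment cannot be told from these values. Alternatives were other background corrections, scalings, filters, probe rules and variance settings, a replicate block, the shared slide and leaving out each array.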

Additional observations from a re-analysis of the deposited data

How the results depend on the processing

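The absence of calls among the 34 genes held under each alternative with all 4 arrays. The median difference of the 34 kept its sign under the other scalings, filters, probe rules and variance settings, from 0.11 with quantile normalization to 0.26 with the median in place of the 75th percentile. It was -0.37 under normexp background correction with every spot, where the array of knockout 2 held 14 spots of uneven background, the highest at 37800 against a median of 26. Without those spots, an alternative chosen after seeing the data, it was 0.15. It was -0.17 relative to the enterocyte markers (-0.26 for the 68 related genes), and 0.74 within the shared slide (0.48 for the related genes). With an array left out it ran from -0.07 to 0.51, and from -0.15 to 0.32 for the related genes.

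Genes called in all numbered 6, against 13 under normexp, 0 with only probes well above background on all 4 arrays, 32 with the replicate block and from 0 to 441 with an array left out. In that last case 0 to 2 of the 34 and 0 to 4 related genes were called. The block by replicate number called 0 of the 34, and whether same-numbered arrays form pairs is not known. The 6 Cyp3a genes called in the main fit were well above background on only 2 arrays each. The filter for all 4 arrays therefore removed them before the test, so its count of 0 does not bear on those calls.

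Single differences changed sign as follows, and the cause was not tested. Under normexp with every spot they were Cpt1a -0.41, Cpt2 -0.41, Acadm -0.48, Acadvl -0.44, Hadha -0.31, Hadhb -0.60, Hadh -0.62, Acaa1b -0.51, Acaa2 -0.38, Ehhadh -0.37, Ech1 -0.33, Eci2 -0.44, Decr1 -0.50, Etfa -0.44, Etfb -0.55, Etfdh -0.17, Plin2 -0.30, Acot1 -0.10, Acsl5 -0.30, Angptl4 -0.19, Ucp2 -0.36, Pex11a -0.42, Vnn1 0.13, Creb3l3 -0.51, Ppara -0.21, Fabp1 -0.42, Lpin1 0.61, Pparg -0.13. Under quantile normalization they were Hadhb -0.029, Hadh -0.055, Acaa1b -0.045, Etfb -0.026, with the median in place of the 75th percentile Acsl1 0.058, Vnn1 0.047, and under normexp without the uneven spots Hadhb -0.0057, Vnn1 0.052. With each array left out in turn the ranges were Cpt1a -0.29 to 0.52, Cpt2 -0.26 to 0.67, Acadm -0.039 to 0.34, Acadl -0.27 to 1.22, Acads -0.10 to 0.83, Acadvl -0.025 to 0.53, Hadha -0.23 to 0.55, Hadhb -0.15 to 0.33, Hadh -0.23 to 0.39, Acaa1b -0.34 to 0.44, Acaa2 -0.17 to 0.63, Acox2 -0.14 to 1.32, Ehhadh -0.25 to 0.60, Ech1 -0.084 to 0.47, Eci2 -0.036 to 0.39, Decr1 -0.041 to 0.44, Decr2 -0.35 to 0.12, Etfa -0.012 to 0.51, Etfb -0.19 to 0.49, Etfdh -0.40 to 0.98, Pdk4 -0.34 to 1.28, Plin2 -0.31 to 0.57, Acot2 -0.49 to 1.14, Acsl1 -0.32 to 0.32, Acsl3 -0.61 to 0.83, Acsl5 -0.020 to 0.70, Angptl4 -0.13 to 0.83, Ucp2 -0.35 to 0.65, Crat -0.27 to 0.54, Pex11a -0.067 to 0.46, Vnn1 -0.99 to 0.97, Creb3l3 -0.33 to 0.75, Cyp4a10 -1.15 to 0.76, Fabp1 -0.35 to 0.82, Slc25a20 -0.44 to 0.77. An arm left with 1 array was assumed to vary like the other, and Acot2, Acot3 and Lpin1 were limited by dim signal.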
